A study of Mus musculus with 12 samples.

Results

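The 10 genes described here encode cytokines, chemokines and related secreted proteins of the inflammation that follows a stroke. They are Il1a, Il1b and Il1rn of the interleukin 1 family, Tnf, the chemokines Ccl2, Ccl3, Ccl4 and Cxcl2, and the secreted regulators Tgfb1 and Spp1. They were taken by gene symbol from a table of 38924 gene entries. No measured value was used as a rule, but the genes were chosen with earlier results of these data known. Of these genes, 9 had an entry under their own symbol. The entry with the identifier of Il1a carried no symbol of its own and was listed at 0 in every library. RNA was sequenced in bulk from mouse haematopoietic stem and progenitor cells, the cells of the bone marrow from which blood is formed. The marrow came from male C57BL/6 donors aged 4 to 5 weeks, and mature cells were depleted with antibodies to CD45R, CD11b, CD3e, Ly-6G and TER119. Both groups share this preparation. The naive group holds 6 libraries (replicates 1, 2, 3, 7, 8 and 9) of cells that were never injected. The brain-recovered group holds 6 libraries (replicates 4, 5, 6, 10, 11 and 12) of cells given intravenously 24 h after cerebral ischaemia and reperfusion and taken from the brain 24 h after that injection. The comparison asks how transcripts of cells that had reached an injured brain differed from those of cells that had not been injected. How the injected cells were told from the cells of the host brain is not given in the sources used here, nor is whether the replicates of a group were separate animals or preparations. The p-values below therefore measure the spread between these libraries, which may be technical.

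Interleukin 1 beta and tumour necrosis factor are early cytokines of sterile injury: microglia and infiltrating myeloid cells release them after ischaemia, and both act on neighbouring cells through receptors that switch on NF-kappaB. The NF-kappaB factors in turn raise transcription of chemokines, which draw leukocytes from the blood. CCL2 attracts monocytes, CCL3 and CCL4 attract monocytes and lymphocytes, and CXCL2 attracts neutrophils. The interleukin 1 receptor antagonist encoded by Il1rn and transforming growth factor beta 1 limit the response, and osteopontin, encoded by Spp1, is secreted by activated macrophages and microglia.

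The bases upstream of the transcription start are shown for 4 of the genes, Il1b, Tnf, Cxcl2 and Spp1. Il1b, Cxcl2 and Spp1 reached their highest values in brain-recovered libraries, and Tnf did not. The sequences come from the RefSeq promoter table (GRCm38.p6), which held 8 of the 10 genes, and each runs 5′ to 3′ on the strand of the gene and ends at the base before the start. Capitals mark every match to GGGNNNNNCC, a loose form of the NF-kappaB site searched on both strands, to TATAAA, the TATA box, or to TGANTCA, the AP-1 site. The windows are chr2:129371140-129371389 on the minus strand for Il1b, chr17:35202008-35202257 on the minus strand for Tnf, chr5:90903649-90903898 on the plus strand for Cxcl2 and chr5:104434861-104435110 on the plus strand for Spp1.
Il1b: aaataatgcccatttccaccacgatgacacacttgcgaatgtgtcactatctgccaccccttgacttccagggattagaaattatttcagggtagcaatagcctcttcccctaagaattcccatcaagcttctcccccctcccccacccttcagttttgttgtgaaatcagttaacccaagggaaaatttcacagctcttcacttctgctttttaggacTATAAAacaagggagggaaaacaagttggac
Tnf: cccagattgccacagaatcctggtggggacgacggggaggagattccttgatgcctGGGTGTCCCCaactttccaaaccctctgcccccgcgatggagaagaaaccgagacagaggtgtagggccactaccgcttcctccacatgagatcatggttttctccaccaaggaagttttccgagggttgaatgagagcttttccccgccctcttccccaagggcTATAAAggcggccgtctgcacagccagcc
Cxcl2: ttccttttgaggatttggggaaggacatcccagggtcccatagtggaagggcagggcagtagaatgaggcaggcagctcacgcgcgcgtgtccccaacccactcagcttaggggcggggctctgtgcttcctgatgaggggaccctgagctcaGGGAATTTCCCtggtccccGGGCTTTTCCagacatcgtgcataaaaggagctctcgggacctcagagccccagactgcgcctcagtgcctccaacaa
Spp1: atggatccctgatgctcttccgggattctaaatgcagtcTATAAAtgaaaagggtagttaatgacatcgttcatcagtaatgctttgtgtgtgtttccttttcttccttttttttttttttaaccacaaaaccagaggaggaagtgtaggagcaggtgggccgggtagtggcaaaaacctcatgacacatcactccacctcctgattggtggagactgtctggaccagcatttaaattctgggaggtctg
The NF-kappaB letters stood in the windows of Cxcl2, Il1rn, Tgfb1 and Tnf, 4 of 8 genes, and in 45.8% of 32851 mouse promoter windows of 250 bases. In Cxcl2 they occurred 97 and 78 bases upstream of the start, and the first of these overlaps a match on the other strand. In Tnf they occurred 194 bases upstream, on both strands at the same place. TATAAA stood 32 bases upstream in Il1a, 31 in Il1b and 29 in Tnf, the usual distance of a TATA box, and 211 bases upstream in Spp1. It was present in 12.4% of all windows. The AP-1 letters were in Il1a and Il1rn, 2 of 8 genes, against 6.75% of all windows. A match describes the letters of the window and is not a measured binding site.

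The deposited value of a gene is a number of reads divided by the length of its gene model and scaled by a constant of the library. It is read here as a level per length that is not corrected for the reads of the library. The constant was 0.660 to 2.00 and did not fall as reads rose. It was 0.713 in naive replicate 1 with 1285616 reads and 1.15 in brain-recovered replicate 10 with 13437434. The values of a library summed to 302020 in naive replicate 3 and to 9842222 in brain-recovered replicate 6, the lowest and highest sums. The number of reads behind a library, recovered from these steps, was 654473 to 2629630 in the naive group and 1129528 to 13437434 in the brain-recovered group. Libraries also differed in how many entries were above 0. Naive replicates 1, 2 and 3 and brain-recovered replicate 12 had 7164, 5818, 5067 and 4380 such entries, and the other 8 libraries had 12066 to 23184. Genes that every cell uses were listed at 0 as well: Gapdh in 4 naive and 2 brain-recovered libraries, and B2m in 6 and 4. A value of 0 is therefore reported as listed and is not read as absence of the transcript. Because labels and values are displaced against each other in stretches of the table, the length implied by the values was set against the annotated length of each gene. It was the exon length of the named gene for Il1b, Tnf, Ccl3, Ccl4 and Spp1, and it was the length of a transcript of the gene itself for Tgfb1. For Ccl2, with a single value above 0, the shortest length that fits is 569 and the exon length of 1138 fits as well, so the check constrains this label less. For Il1rn and Cxcl2 the lengths, 3207 and 1054, were shorter than the annotated exon lengths of 5535 and 2068 and matched no annotated transcript of the gene. These 2 labels were kept because entries beside them matched theirs, and whether the values belong to Il1rn and Cxcl2 is less sure than for the other genes.

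The 10 genes were seen more often, and at higher levels, in part of the brain-recovered group. Of 60 gene-by-library values in each group, 20 were above 0 in the naive group and 33 in the brain-recovered group. Over all entries, naive replicates 1, 2 and 3 had 7164, 5818 and 5067 above 0. Naive replicates 7, 8 and 9 had 18753, 16269 and 23184. Brain-recovered replicates 4, 5, 6, 10 and 11 had 19489, 22727, 16237, 12066 and 21482, and replicate 12 had 4380. The higher count of the 10 genes was not separated from this difference in detection over all entries. Reads from these genes came to at most 155 per naive library. They came to 11187, 3087 and 7641 in brain-recovered replicates 5, 6 and 10, and to 44, 195 and 1 in replicates 4, 11 and 12. Replicates 5, 6 and 10 were also the deepest of the 12 libraries, with 4955249, 8942422 and 13437434 reads against at most 2629630 in a naive library. The counts are not divided by depth and overstate the gap between libraries. The deposited values are not divided by depth either. The high values were carried by these 3 of 6 brain-recovered libraries. Which gene led differed between them: Spp1 in replicates 5 and 6, and Il1b in replicate 10. Naive replicate 3 had none of the 10 genes above 0, and brain-recovered replicate 12 had Il1b alone, with 1 read. In no gene were the 6 brain-recovered libraries all above the 6 naive ones, a pattern found in 0.147% of the 17689 entries tested.

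**Figure D1:**
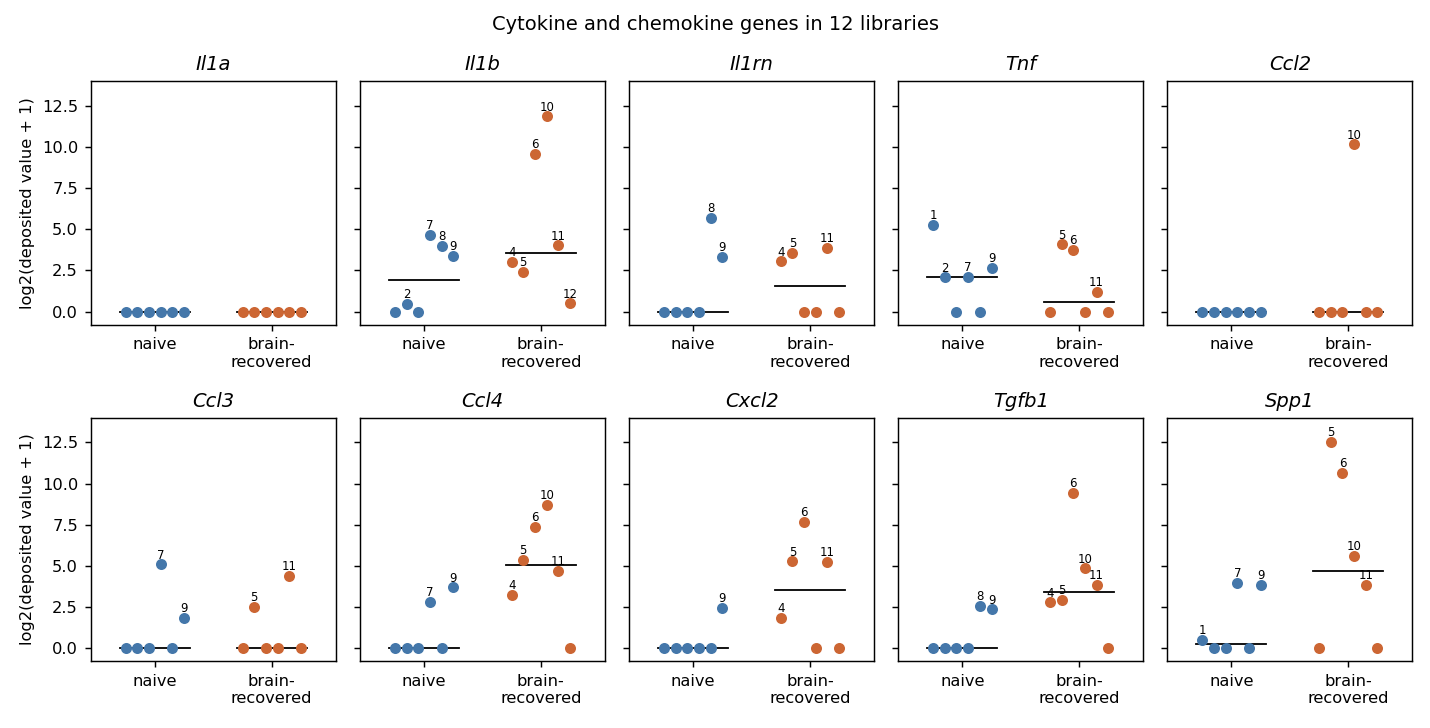
Deposited value of each of the 10 genes in every library, as log2(value + 1), with naive libraries in blue and brain-recovered libraries in orange. Points above 0 carry the replicate number and the line is the group median; the highest points of Il1b, Ccl2, Ccl4, Cxcl2, Tgfb1 and Spp1 belong to brain-recovered replicates 5, 6 or 10, and the groups overlap in every panel.

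Of the 10 genes, 5 reached 1 or more in no fewer than 6 libraries and could enter the test across all entries: Il1b, Tnf, Ccl4, Tgfb1 and Spp1. None of these 5 passed an adjusted p of 0.05 in limma, where 0.367% of the 17689 entries tested were called, all of them higher in the brain-recovered group. At an unadjusted limma p under 0.05, 4 of the 5 were higher (Il1b, Ccl4, Tgfb1 and Spp1) against 6.08% of all entries, and 0 were lower against 0.175%. The exact two-sided permutation test of 6 against 6 libraries, which uses each gene's own spread, put 2 of the 5 under an unadjusted 0.05 (Ccl4 and Tgfb1) against 4.13% of all entries, and none after adjustment. The median log2 difference of the 5 genes was 3.15, and that of all entries tested was 0.64. Genes that passed the filter only through the group where they are high had to differ, so these counts and medians are a description. Without the filter, the 9 genes with a value above 0 had a median of 2.94, and 24388 entries had one of 0.54. Differences below are of mean log2(value + 1), brain-recovered minus naive, a scale that understates the change of genes at low levels. In bulk RNA a lower share of cells that express a gene and a lower level per cell cannot be told apart.

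Il1b, which encodes the secreted agonist interleukin 1 beta, was the member detected in most libraries. It lies on chromosome 2 (ENSMUSG00000027398, 129364570 to 129371139, minus strand, GRCm38). Its naive level ran from 0 in replicates 1 and 3 through a median of 4.87 to 23.8 in replicate 7. In the brain-recovered group it ran from 0.415 in replicate 12 through a median of 11.2 to 3709 in replicate 10. The second highest value was 762 in replicate 6, and the other 4 brain-recovered libraries, at 0.415 to 15.2, lay within the naive range. Replicate 10, the deepest library with 13437434 reads, had 6150 reads of the gene, and the 6 naive libraries had 78 in all. Il1b ranked 267th from the top of the 12066 entries above 0 in replicate 10 and 620th of 16237 in replicate 6. The log2 difference was 3.15 ± 1.32 (limma SE, 6 libraries a group, adjusted p = 0.617; p = 0.173 in the exact permutation test), so no difference beyond the spread between libraries was shown. Without replicate 10 it was 1.82. An antisense transcript, Il1bos, shares exons with Il1b, and whether reads were counted by strand is not given in the sources used here. Il1bos was listed at 0 in replicates 10 and 12, had 7.01 to 34.2 in the other 4 brain-recovered libraries, with 7.01 in replicate 6, and had 9.03 to 34.8 in the 3 naive libraries where it was above 0.

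The other agonist, interleukin 1 alpha, is made from Il1a (ENSMUSG00000027399, chromosome 2, 129299610 to 129309972, minus strand). Its entry was listed at 0 in all 12 libraries, where 3 reads would have given a value of 1.00 to 3.04 depending on the library. Il1rn encodes the interleukin 1 receptor antagonist, which occupies the receptor without signalling (ENSMUSG00000026981, chromosome 2, 24336853 to 24351494, plus strand). It was above 0 in naive replicates 8 and 9, at 51.2 and 9.05. It was above 0 in brain-recovered replicates 4, 5 and 11, at 7.28, 10.7 and 13.6. The groups overlapped, the highest value was naive, and the log2 difference was 0.24 (exact permutation p = 0.848). Brain-recovered replicates 6 and 10, which had the highest Il1b, were both listed at 0 for Il1rn. Across the 12 libraries Pearson's r between the log2 values of Il1b and Il1rn was -0.05, a description over points that share library and depth.

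Tnf, which encodes tumour necrosis factor, was the one tested gene with a difference below 0 (ENSMUSG00000024401, chromosome 17, 35199381 to 35202007, minus strand). Its levels were 37.9, 3.23, 3.26 and 5.23 in naive replicates 1, 2, 7 and 9, with replicates 3 and 8 listed at 0. In the brain-recovered group they were 15.9, 12.2 and 1.27 in replicates 5, 6 and 11, with replicates 4, 10 and 12 listed at 0. The highest value was naive, with 87 reads, and every brain-recovered value lay inside the naive range. The log2 difference was -0.52 ± 1.08 (limma SE, adjusted p = 0.993; p = 0.654 in the exact permutation test). The sign rests on 1 library: without naive replicate 1 the difference was 0.14. Replicate 10, which held the highest Il1b, Ccl2 and Ccl4, had no Tnf read.

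Ccl2 encodes a chemokine that draws monocytes through its receptor CCR2 (ENSMUSG00000035385, chromosome 11, 82035571 to 82037453, plus strand). It was above 0 in a single library, brain-recovered replicate 10, at 1136. It ranked 474th of 12066 entries above 0. The value is 1124 reads at the exon length of 1138 bases, and fewer reads at the shorter length of 569 would give the same value. The other 11 libraries were listed at 0, where 3 reads at the exon length would have given a value of 1.74 to 5.28. With 1 library above 0 the exact permutation p is 1, and the gene could not enter limma.

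The chemokines CCL3 and CCL4, also known as MIP-1 alpha and MIP-1 beta, are encoded close together on chromosome 11. Ccl4 (ENSMUSG00000018930, 83662584 to 83664683, plus strand) was listed at 0 in 4 naive libraries and had 6.08 and 11.997 in naive replicates 7 and 9. In brain-recovered replicates 4, 5, 6, 10, 11 and 12 its levels were 8.32, 40.9, 164, 413, 25.1 and 0. Replicates 5, 6, 10 and 11 were above every naive library, replicate 4 lay between the naive values, and replicate 12 was at the bottom of the range. The log2 difference was 3.81 ± 1.27 (limma SE, adjusted p = 0.272; exact permutation p = 0.0325 unadjusted and 0.973 adjusted over all entries). Ccl4 stood between the 94.6th and 95.8th percentiles of the entries above 0 in replicates 5, 6 and 10. Its naive values stood at the 29.4th and 56.0th percentiles.

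Ccl3 (ENSMUSG00000000982, 83647844 to 83649355, minus strand) did not follow Ccl4. It was above 0 in naive replicates 7 and 9, at 33.2 and 2.58, and in brain-recovered replicates 5 and 11, at 4.70 and 20.3. The highest value was naive, replicates 6 and 10 with the highest Ccl4 were listed at 0, and reads came to 22 in the naive group and 19 in the brain-recovered group. The log2 difference was -0.00 (exact permutation p = 1). Pearson's r between Ccl3 and Ccl4 over the 12 libraries was 0.22.

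Cxcl2, also known as MIP-2, encodes a neutrophil attractant that acts through CXCR2 (ENSMUSG00000058427, chromosome 5, 90903871 to 90905938, plus strand). Of the upstream windows shown above, only that of Cxcl2 holds a pair of NF-kappaB matches at separate places. The window of Tgfb1, searched but not shown, holds matches at several places from 199 to 47 bases upstream. In the naive group it was above 0 only in replicate 9, at 4.38 and with 7 reads. In brain-recovered replicates 4, 5, 6 and 11 it had 2.61, 37.6, 205 and 37.4, and replicates 10 and 12 were listed at 0. Replicates 5, 6 and 11 were above every naive library, at the 94.8th to 95.6th percentiles. With 5 libraries at 1 or more the gene missed the filter by 1 library, and the exact permutation test of its log2 difference of 2.94 gave p = 0.106. Replicate 10 thus held Ccl2, Ccl4 and Il1b at high levels with no read of Cxcl2 or Ccl3, and replicate 6 held Ccl4, Cxcl2 and Il1b with none of Ccl2 or Ccl3.

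**Figure D2:**
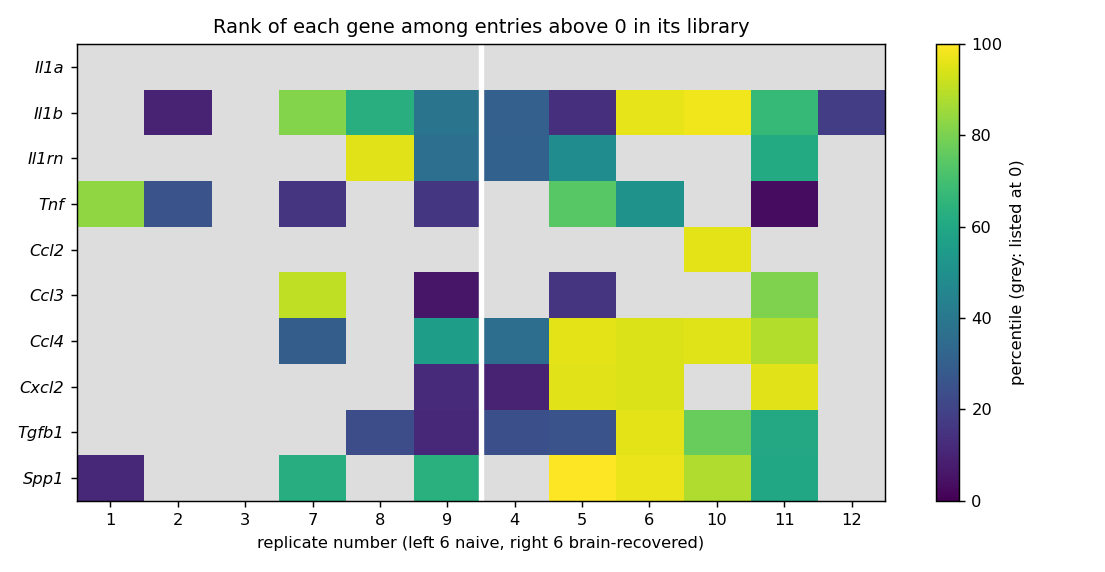
Percentile of each gene among the entries above 0 of the same library (colour, 0 to 100), with grey for genes listed at 0; the 6 columns on the left are naive and the 6 on the right brain-recovered. Values above the 95th percentile number 1 of 60 in the naive group (Il1rn in replicate 8) and 9 of 60 in the brain-recovered group.

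Tgfb1 encodes transforming growth factor beta 1, which restrains inflammation and drives scar formation (ENSMUSG00000002603, chromosome 7, 25687002 to 25705077, plus strand). Its naive levels were 4.89 and 4.13 in replicates 8 and 9, and the other 4 naive libraries were listed at 0. In brain-recovered replicates 4, 5, 6, 10, 11 and 12 it had 5.91, 6.68, 681, 27.9, 13.4 and 0. All brain-recovered libraries but replicate 12 were above every naive library, more than for any other of the 10 genes, although replicates 4 and 5 exceeded the highest naive value by little. The log2 difference was 3.15 ± 1.22 (limma SE, adjusted p = 0.519; exact permutation p = 0.0238 unadjusted and 0.973 adjusted over all entries). Only replicate 6, with 870 reads, took Tgfb1 to the 96.1st percentile. In the other 4 brain-recovered libraries above 0 it stood at the 24.5th to 76.9th. Without replicate 6 the log2 difference was 2.07.

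Spp1, which encodes osteopontin, had the highest single value of the 10 genes (ENSMUSG00000029304, chromosome 5, 104435118 to 104441050, plus strand). Its naive levels were 0.433, 14.6 and 13.2 in replicates 1, 7 and 9, with replicates 2, 3 and 8 listed at 0. In brain-recovered replicates 5, 6, 10 and 11 they were 6015, 1603, 47.5 and 13.2, with replicates 4 and 12 listed at 0. In replicate 5, 11014 reads placed Spp1 21st of the 22727 entries above 0, the one value of the 10 genes above the 99th percentile of its library. Replicates 5, 6 and 10 were above every naive library and the other 3 were within the naive range. The log2 difference was 4.05 ± 1.30 (limma SE, adjusted p = 0.223; p = 0.130 in the exact permutation test). This was the largest difference of the 10 genes on this scale, but Ccl4 exceeded it with a pseudocount of 0.1 (5.48 against 4.85), after quantile normalization (2.66 against 2.61) and in replicates 7 to 12 alone. Without replicate 5 the difference of Spp1 was 2.63, below those of Il1b (3.72), Ccl4 (3.71) and Tgfb1 (3.36). Without replicate 6 it was 3.01, below that of Ccl4 (3.32). These values of Spp1 are given with no test because the gene then misses the filter. The limma SE pools the spread over entries of like abundance, and the spread of Spp1 itself is wider, with SDs of log2(value + 1) of 1.96 in the naive and 5.28 in the brain-recovered libraries. An annotated transcript of unknown class, Gm42793, lies within Spp1 on the same strand, and how reads they share were assigned is not given in the sources used here.

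Which libraries were used decided the tests of Ccl4, Cxcl2 and Spp1. Without brain-recovered replicate 12, the library with the fewest entries above 0, Ccl4 had a log2 difference of 4.79 (adjusted p = 0.0184, limma) and Spp1 one of 5.14 (adjusted p = 0.0173), and 1.29% of all entries were then called higher. With replicates 1 to 6 alone, Ccl4 had 5.33 (adjusted p = 0.0107) and Cxcl2 4.94 (adjusted p = 0.0363), against 37.8% of all entries called higher. Both genes were listed at 0 in naive replicates 1, 2 and 3. They passed the filter of that subset only through the brain-recovered group and had to differ, so these calls are a description. In that subset every naive library had fewer than 10000 entries above 0 and no brain-recovered library had, so the group and the number of entries detected cannot be told apart, and the median of all entries was 2.42. With replicates 7 to 12 alone the differences were 2.29 for Ccl4, 1.46 for Il1b, 1.26 for Tgfb1 and 0.55 for Spp1, where the median of all entries was -1.09, and none passed the threshold. Without the 4 libraries of few entries they were 3.70, 2.18, 3.13 and 3.93, beside a median of -0.06, and none passed. The labels do not say that replicates 1 to 6 and 7 to 12 were prepared apart.

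**Figure D3:**
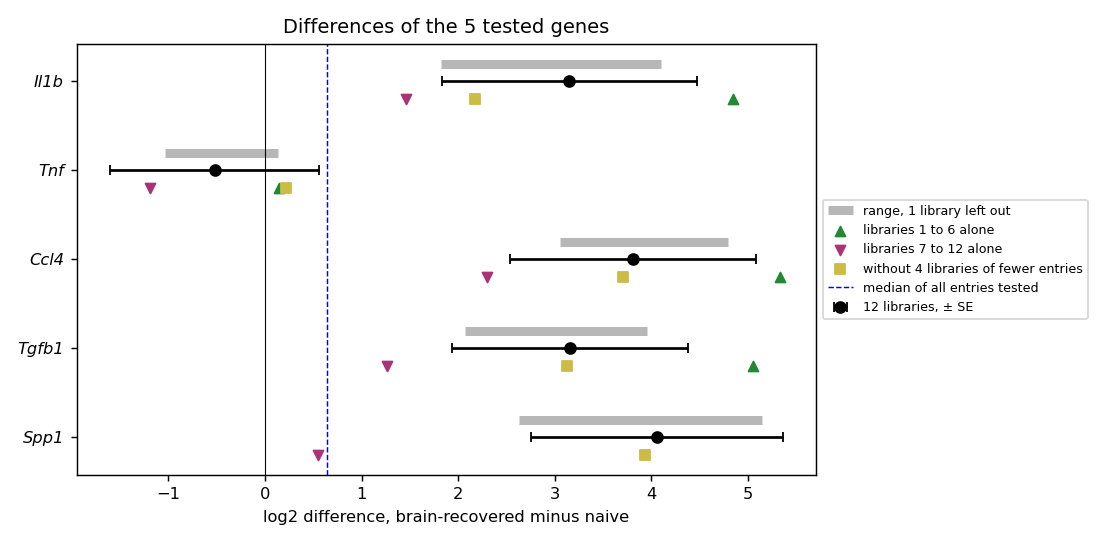
Log2 difference, brain-recovered minus naive, of the 5 tested genes over 12 libraries (black, ± limma SE), its range with each of the 12 libraries left out in turn, computed without the filter (grey bar), and its value in subsets of the libraries (symbols); the dashed line is the median of all 17689 entries tested, 0.64. Il1b, Ccl4, Tgfb1 and Spp1 stay above 0 in every subset drawn, with lower values in replicates 7 to 12 than in all 12; Spp1 could not be tested in replicates 1 to 6.

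Markers of cell types that a brain or marrow sample could hold differed between libraries by a wide margin, in part in the libraries with high values of the 10 genes and in part in others. The summed level of 12 microglial markers was 29.9 to 185 in the naive libraries. In the brain-recovered libraries it was 2.08 to 21258, the highest in replicate 10, where C1qa was 19416 and C1qb 1764. Tmem119, a defining microglial marker, was listed at 0 in replicates 6 and 10 and had 3.14 to 13.1 in replicates 4, 5 and 11. P2ry12, Gfap and Tubb3 were listed at 0 in all 12 libraries under labels that rest on neighbouring entries, so these zeros say nothing of the cells. The sum of 7 monocyte and macrophage markers was 0 to 103 in the naive group and 0.503 to 1188 in the brain-recovered group. It was 1188, 1126 and 666 in replicates 6, 10 and 11, led by Cd14, Fcgr3 and Ccr2 respectively, and 73.9 in replicate 5, inside the naive range, where Spp1 was highest. The microglial sum of replicate 5, 150, was also inside the naive range. Neutrophil markers had sums of 17626 in brain-recovered replicate 4 and 12975 in naive replicate 1, nearly all S100a8 and S100a9, and Ly6g was listed at 0 in both. Replicate 4 had 44 reads of the 10 genes in all. Oligodendrocyte markers, led by Mbp in replicates 4 and 5 and by Cnp in replicate 6, summed to 6179, 7430 and 25080 in these brain-recovered libraries. Their sum was 37.0 in replicate 10, inside the naive range of 16.6 to 82.9. Markers of the labelled cells were uneven: 8 stem and progenitor markers had sums of 5.88 to 76.9 in naive libraries. In brain-recovered replicates 5, 6, 10 and 11 the sums were 1083, 60008, 70487 and 2725. Nearly all of the sums in replicates 6 and 10 came from Ly6a, Elane and Mpo, with Ly6a at 35095 in replicate 6 and Elane at 65623 in replicate 10. Kit, Gata2, Myb, Meis1 and Hlf were inside their naive ranges in both. Among the other lists, astrocyte markers reached 2187 in replicate 6, mostly Slc1a2 at 2096.5. Endothelial markers reached 2885 there, mostly Vwf at 1488 and Cdh5 at 1309. In that library Aldh1l1 and Gja1 of the astrocyte list, and Pecam1, Flt1 and Tek of the endothelial list, were inside their naive ranges. Neuronal markers reached 376 in replicate 4, mostly Rbfox3 at 238 and Snap25 at 119. The sum of 3 B cell markers reached 167 in replicate 11, mostly Cd79b at 122.5, with Cd79a at 6.41 inside its naive range. Replicates 6 and 10 combined high Il1b and Ccl4 with high Mpo, at 7678 and 4808, and replicate 5 combined the highest Spp1 with Mbp at 5174. The part of any of these cell types in the levels of the 10 genes was not tested.

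**Figure D4:**
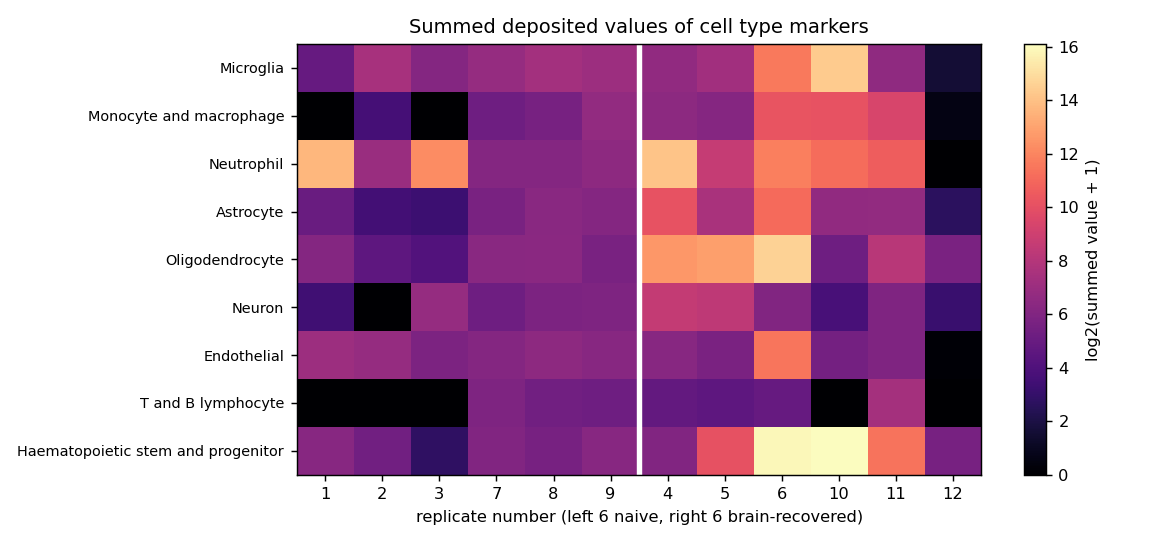
Summed deposited value of the usable markers of 9 cell types in each library (colour, log2 of the sum + 1); the 6 columns on the left are naive and the 6 on the right brain-recovered. The microglial sum is highest in brain-recovered replicate 10 (21258). The stem and progenitor sum is highest in replicates 10 and 6 (70487 and 60008), nearly all from Ly6a, Elane and Mpo.

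Genes that receive, process or follow these signals were described from 6 lists of 76 genes, of which 66 had a usable label and 47 could be tested. Of the genes named below, Gsdmd, Capn1, Ackr1, Cxcr2, Tgfbr2 and Zfp36 kept their label only because neighbouring entries matched. The same holds for Myd88, Cxcl10, Ccl6 and Ccl19, whose entries hold only zeros. None of the 47 passed the threshold in limma, where 0.367% of all entries did, and 1 was higher at an unadjusted p under 0.05 against 6.08% of all entries (0 were lower, against 0.175%). The median log2 difference of the 47 was 0.82, beside 0.64 over all entries. Of receptors and adaptors of interleukin 1 and TNF, 7 of 10 were tested, with a median of 0.71. That median was -0.04 after quantile normalization and -0.50 in replicates 7 to 12 alone. The largest differences among them were those of Traf2, an adaptor of TNF receptors (1.94 ± 1.31, adjusted p = 0.946), and Tnfrsf1b, which encodes TNF receptor 2 (1.80 ± 1.28, adjusted p = 0.954). Tnfrsf1b was listed at 0 in naive replicates 1, 2 and 3, had 13.1 to 43.1 in the other naive libraries and 4.35 to 55.1 in the brain-recovered ones, so the groups overlapped. Myd88, the adaptor of the interleukin 1 receptor, was listed at 0 throughout.

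Of 6 genes that release mature interleukin 1 or TNF, 4 were tested and their median was -0.33, which turned to 0.62 in replicates 1 to 6 alone. Gsdmd, whose product forms the pore through which interleukin 1 beta leaves the cell, had a difference of -1.42 ± 1.26 (adjusted p = 0.962), and its highest values were 39.2 (naive) and 12.7 (brain-recovered). Capn1, which encodes a calpain protease, had 0.81 ± 1.19 (adjusted p = 0.986). Of 6 receptors for the chemokines described here 4 were tested, with a median of 0.82, which turned to -0.37 in replicates 7 to 12 alone. Ackr1, a decoy receptor of endothelium and red cells, had 87049 in brain-recovered replicate 10 and 0 to 25.1 in the other 11 libraries (1.51 ± 1.29, adjusted p = 0.961). Cxcr2, the receptor of CXCL2, was above 0 in naive replicates 7, 8 and 9 and in brain-recovered replicates 4, 5, 6 and 11, between 6.16 and 42.2 (0.82 ± 1.21, adjusted p = 0.986). Its values included replicates 5, 6 and 11, in which Cxcl2 was highest.

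All 13 genes of receptors and partners of TGF beta and osteopontin were tested, and all 13 differences were above 0, from 0.07 to 2.49 with a median of 1.74. The number above 0 differed between settings, and the median of all entries is given beside each. It was 10 of 13 after quantile normalization (list median 0.63, all entries -0.06) and 9 of 13 after scaling to library totals (0.45 and -0.37). It was 4 of 13 in replicates 7 to 12 alone (-0.83 and -1.09) and 6 of 13 without the 4 libraries of few entries (-0.09 and -0.06). Smad4, the shared signal carrier of the family (2.49 ± 1.29, adjusted p = 0.815), had 10202 in brain-recovered replicate 6 and at most 17.4 in the other 11 libraries. Tgfbr2, the ligand-binding receptor (2.40 ± 1.27, adjusted p = 0.827), had 8696 in the same library and at most 22.9 elsewhere. Tgfb1, at 681, was also highest in replicate 6.

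Of 12 genes of the NF-kappaB pathway and its feedback, 6 had a usable label and all 6 were tested, with a median of 1.00. Zfp36, whose product binds and destabilises Tnf mRNA, had the largest difference of all 47 (3.55 ± 1.197, adjusted p = 0.293). It was listed at 0 in 4 naive libraries and had 344 and 129 in brain-recovered replicates 4 and 10. Tnf was listed at 0 in these libraries, and also in naive replicates 3 and 8 and brain-recovered replicate 12, where Zfp36 was listed at 0 too. Socs3, a feedback inhibitor of cytokine receptors, had at most 6.18 in any naive library and 2.85 to 28.6 in the brain-recovered ones other than replicate 12, at 0 (2.07 ± 1.18, adjusted p = 0.888). Of 29 other cytokines and chemokines 13 were tested, with a median of 0.65. In replicates 7 to 12 alone, where 18 could be tested, the median was -0.97. Ccl9, a myeloid chemokine, had 722 and 110 in brain-recovered replicates 11 and 6 and at most 12.7 in any naive library (2.18 ± 1.29, adjusted p = 0.904). Cxcl12, which retains progenitors in the marrow through CXCR4, had 1.37 ± 1.13 (adjusted p = 0.961), and Cxcl10, Ccl6 and Ccl19 were listed at 0 in every library.

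**Figure D5:**
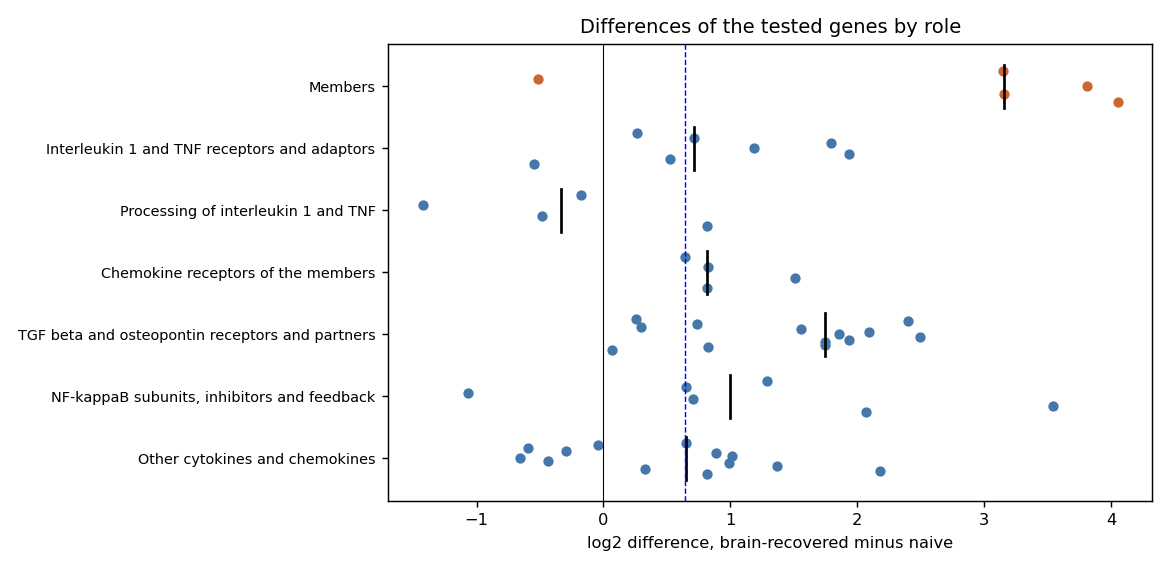
Log2 difference, brain-recovered minus naive, of each tested gene of the 10 (orange) and of 6 lists of related genes (blue), with the median of each row as a vertical bar and the median of all entries tested, 0.64, as a dashed line. The medians are 3.15 for the 5 tested genes, 1.74 for partners of TGF beta and osteopontin and -0.33 for genes that process interleukin 1 and TNF.

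The 10 genes did not share 1 order of levels across libraries. Pearson's r of log2(value + 1) over the 12 libraries was 0.86 for Il1b and Ccl4, which shared replicates 10 and 6 as their highest libraries, 0.81 for Ccl4 and Tgfb1 and 0.80 for Il1b and Tgfb1. It was 0.77 for Cxcl2 and Spp1, which were both listed at 0 in replicate 12 and both high in replicates 5 and 6. For Tnf and Il1b it was -0.10. Libraries differ in depth and in the number of entries above 0, which all these points share, and the coefficients are given as a description. Among 8250 entries whose recovered length is exactly that of the named gene, the closest to Il1b was Psmd4, a proteasome subunit (r = 0.990), with 4516 and 1285 in replicates 10 and 6. Next came Ptges3, a chaperone partner (r = 0.970). The entries closest to Ccl4 were Gm26630 (r = 0.984) and Gm26748 (r = 0.975), and those closest to Tnf were Gm13807 (r = 0.910) and Tnfaip8l2, an inhibitor of immune receptor signalling (r = 0.906). Those closest to Spp1 were Gid4 (r = 0.919) and Cox7b (r = 0.917). Tgfb1, compared with 8251 entries, was closest to Pdlim4 (r = 0.976) and to Il33, which encodes an alarmin of the interleukin 1 family (r = 0.974). Il33 had 6230 in replicate 6 and at most 29.9 in the other 11 libraries.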

How the data were processed

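RNA of 6 naive and 6 brain-recovered libraries was assigned to groups by sample title. Lysates went directly into SMARTer Ultra Low Input (v3) cDNA synthesis and PCR, then Nextera XT tagmentation and a HiSeq 2500, per the labels' protocols. Per the submitters' processing notes, Trimmomatic 0.32 and GRCm38 were used. Aligner, counter, strand setting and annotation were not given in the sources used here. What the authors deposited is a table with no unit named, and its values are treated as RPKM made by the authors from reads before deposit, because 24387 of the 24388 entries above 0 are whole reads (tolerance 2e-05 of a read plus 3e-08 in proportion) times a library constant over 1 length. The constant is not the read total. No column of other samples was present (0). Reads come from PCR without molecular identifiers, so limits of 3 reads cover counting error only.

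Entries were matched to GENCODE M21 names by Ensembl identifier (37607 of 38924). A label was kept where the recovered length was that of the gene or of its transcripts, or where neighbouring entries matched and no other gene within 40 places did. Of 23874 entries with a value and an annotated length, 11474 had exactly that length. The Il1a entry holds only zeros and its label rests on its neighbours.

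Differences were tested with limma 3.58.1 (R 4.3.3; eBayes with trend, 2 groups, no covariate) on log2(value + 1), over the 17689 entries that reached 1 in no fewer than 6 libraries, called at a Benjamini-Hochberg adjusted p under 0.05. The prior degrees of freedom were infinite, so SE and p rest on the pooled spread. The exact two-sided permutation test used all 924 assignments and cannot go below 0.00216. The fit was tested on simulated data. Percentiles are among entries above 0 of a library. Tables were made with pandas 2.3.3 and numpy 2.4.6 in Python 3.11.15, and figures with matplotlib 3.10.9. Promoters are RefSeq's (GRCm38.p6). The 10 genes, the lists and the tests were chosen with earlier results of these data known. Named from the lists were genes past the threshold, otherwise the 2 per list with the largest absolute difference. Named for likeness were the 2 entries of exact length with the highest Pearson r. Unusable labels were left out of the lists (among them Nfkbia, Nlrp3, Ccr1, Lyz2, Itgam and Cd34). Some single genes of the lists are not reported here. Alternatives covered pseudocount, filter, scaling, trend, sample weights, the permutation test and subsets of libraries.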

Additional observations from a re-analysis of the deposited data

Results flagged for a closer look

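Of the 17 combinations of a gene and a group in which the 6 libraries were not all listed at 0, 3 had 1 library far from the other 5 (Dixon's ratio of gap to range above its critical value, on log2(value + 1)). Chance gives about 1 in 20 such flags for normally distributed values, which these groups with many zeros are not. With 5 libraries at 0 the ratio is 1.0 whatever the other value is, so the flags of Ccl2 and Cxcl2 below were fixed in advance. Ccl2 in the brain-recovered group was 1136 in replicate 10 and listed at 0 in the other 5. Ccl3 in the naive group was 33.2 in replicate 7, next to 2.58 in replicate 9 and 0 in the other 4. Cxcl2 in the naive group was 4.38 in replicate 9, from 7 reads, and listed at 0 in the other 5.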

How the results depend on the processing

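No paired analysis was possible because the naive and brain-recovered groups share no replicate number. Over all entries, 65 were called higher and 0 lower. That count was 33 with a filter of at least 10, 115 without the variance trend, 6011 with replicates 1 to 6 alone (6010 higher) and 2 without the 4 libraries of fewer than 10000 entries above 0. It was 0 with a pseudocount of 10, quantile normalization, scaling to library totals, the exact permutation test and replicates 7 to 12 alone. With a library left out it was 36 to 226. Quantile normalization moved the median of all entries from 0.64 to -0.06 and scaling to totals to -0.37. The entries called at an unadjusted p under 0.05 were then 557 higher and 497 lower, and 185 and 425, instead of 1075 and 31.

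The number of the 10 genes called was 0, and 2 without brain-recovered replicate 12 or with replicates 1 to 6 alone. With a library left out it was 0 to 2. The 2 called with replicates 1 to 6 alone passed the filter there only through the brain-recovered group. Over 120 alternatives for single genes, 113 kept direction and, where tested, side of the threshold, 3 passed it (Ccl4 and Spp1, given in the text) and 4 turned the sign of Tnf. The Tnf difference was 0.22 with sample weights, 0.14 without naive replicate 1, 0.15 with replicates 1 to 6 alone and 0.22 without the 4 libraries. Over the alternatives the log2 difference was 0.76 to 4.84 for Il1b, 2.12 to 5.48 for Ccl4, 1.26 to 5.05 for Tgfb1 and 0.55 to 5.14 for Spp1 (2.63 to 5.14 with a library left out, 6 of these values chosen after seeing the data and given without a test), and with a library left out it was -1.03 to 0.14 for Tnf. The causes were not tested. After scaling to library totals the log2 difference was 2.01 for Il1b, 2.62 for Ccl4, 1.99 for Tgfb1, 2.94 for Spp1 and -1.79 for Tnf. The median of all entries was then -0.365. Scaling to library totals turned the medians of 3 lists of related genes below 0: receptors of interleukin 1 and TNF (-0.34), chemokine receptors (-0.11) and other cytokines (-0.49). Depth limits the low values: 3 reads of Ccl4 are worth up to 9.10, close to its naive values.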
